A study of Oryza longistaminata with 15 samples.

Results

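The 2 genes annotated as putative meiosis 5 proteins, Os06g35970 (probe set Os.11445.1.S1_at, platform symbol LOC4341274) and Os02g13660 (probe set Os.8984.1.S1_at, platform symbol LOC9270481), were followed across 5 tissues of the wild rice O. longistaminata. Their locus names place them on rice chromosomes 6 and 2, and each is measured by 1 probe set with the plain suffix "_at". They are 2 of the 57194 rice probe sets on the Affymetrix GeneChip Rice Genome Array, and no other of the 2615 probe sets with a name in the tables used here carries this annotation. Both genes were chosen by the difference between the 2 tip tissues, so every contrast of tip arrays is given for them as a description with no test. The contrasts among the rhizome internode, shoot internode and young leaf were not used in that choice and were tested.

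O. longistaminata spreads by rhizomes, which are underground stems whose tips carry an apical meristem, and it also forms upright tillers (the shoots). In grasses the internodes of both kinds of stem elongate from dividing tissue near their base. Meiosis takes place in the reproductive cells of flowers, and none of the sampled tissues is a flower. The name "meiosis 5" is a putative annotation. The study links both genes to apical meristem development, and no molecular role is assigned to them here.

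Total RNA was taken at the active tillering stage from wild-type greenhouse plants of 1 accession, with 3 arrays for each tissue and 15 arrays in all. The tissues were labelled RT (rhizome tip), ST (shoot tip with its leaves removed), RI (rhizome internode), SI (shoot internode) and YL (young leaf). The accession was kept as 1 plant, so the replicates may not differ genetically, and the p-values measure the spread between these samples. The probes were designed on cultivated rice, so a sequence difference in the wild species can lower a signal. In samples of whole tissue, fewer cells of a type and less RNA per cell cannot be told apart.

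The labels of the 2 tips need care. All 424 probe sets that the study lists as different between RT and ST ran in the opposite direction to the sample labels in the deposited signals (0 of 424 ran as labelled), and both meiosis 5 genes are among them. The arrays are therefore called ST-labelled and RT-labelled throughout, and each direction between tips given here opposes the one stated by the study. The 17 probe sets of chlorophyll a-b binding proteins and the Rubisco small chain, which serve photosynthesis, had a mean log2 signal of 8.36 to 8.56 in the RT-labelled tip against 5.32 to 5.71 in the ST-labelled tip. The same mean was 11.56 to 12.01 on the YL arrays, 10.40 to 10.78 on SI and 6.10 to 6.34 on RI. Homeobox gene OSH1, which marks undifferentiated shoot meristem cells, had log2 signals of 9.95 to 10.42 on RT-labelled, 10.77 to 10.99 on ST-labelled and 2.38 to 3.48 on YL arrays. It was not confined to tips, with 9.61 to 10.08 on RI and 9.46 to 10.03 on SI arrays, which overlapped the RT-labelled range. Between tips the 2 probe sets of MCM3, a DNA replication licensing factor, ran the other way. Their mean log2 signal was 8.24 to 8.54 on RT-labelled and 7.36 to 7.75 on ST-labelled arrays.

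Some arrays stood apart from the others of their tissue, for reasons that were not tested. On RT-labelled replicate 2 the 3′ probe set of the GAPDH control was 17.4 times its 5′ probe set, against 1.75 to 4.49 times on the other 14 arrays, and an added bacterial dap transcript gave 28.9 against 2.96 to 4.80. In a clustering of all arrays into 4 groups over 10935 probe sets, SI replicate 1 fell with RI replicates 1 and 3, and RI replicate 2 fell with SI replicates 2 and 3. The tip ratios, the tests and the correlations of both genes are given below with and without these arrays.

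Os06g35970 was bright in the ST-labelled tip and on most internode arrays, and dim in young leaf. The signals (linear intensities in arbitrary units) were 729.6, 2318 and 1839 on the ST-labelled arrays and 119.8, 367 and 121 on the RT-labelled arrays. Every ST-labelled array lay above every RT-labelled array. Over the 21303 tested probe sets, 6.52% were ordered in this way. The means were 1629 ± 815 and 202 ± 142 (SD, n = 3), a ratio of 8.04, and the ratio of the geometric means was 8.37.

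In the internodes the same gene was either high or low, with nothing between. The RI arrays read 47.9, 2743 and 1605, so replicate 1 was far below the other two. On the SI arrays the signals were 182.9, 2706 and 2516, again with replicate 1 alone at the low end. The highest array was 57.3 times the lowest within RI and 14.8 times within SI. The 4 high internode arrays lay within or above the range of the ST-labelled tips, and the low RI array lay below every RT-labelled array.

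In young leaf the signals of Os06g35970 were 32.8, 65.5 and 27.5, and only the second of these exceeded the detection cutoff of 49.6, below which 95% of the signals of the reporter controls fell, probe sets for sequences that rice does not have. The YL mean was 41.9 ± 20.6 (SD, n = 3). All RT-labelled arrays and all ST-labelled arrays were above all YL arrays. For ST against YL this order was met by 34.5% of the tested probe sets, and for RT against YL the share was not counted.

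Os02g13660 had its highest mean in the ST-labelled tip, although 1 RI array exceeded the lowest ST-labelled array. Its signals were 452.3, 2209 and 1129 on the ST-labelled arrays and 46.9, 160.6 and 64.0 on the RT-labelled arrays. The groups did not overlap, the means were 1263 ± 886 and 90.5 ± 61.3 (SD, n = 3), and their ratio was 14.0 (13.3 for the geometric means). One RT-labelled array was under the detection cutoff.

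The internode signals of Os02g13660 were 29.1, 550.4 and 136.2 in RI and 20.3, 134.6 and 50.5 in SI. Replicate 1 was the lowest of its tissue in both, as it was for Os06g35970, and it was under the cutoff in both. The RI mean was 239 ± 275 and the SI mean 68.5 ± 59.3 (SD, n = 3), so the SD was close to or above the mean. In YL the signals were 18.9, 20.5 and 20.8, all under the cutoff. Here the gene can be said only to be not above background.

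**Figure D1:**
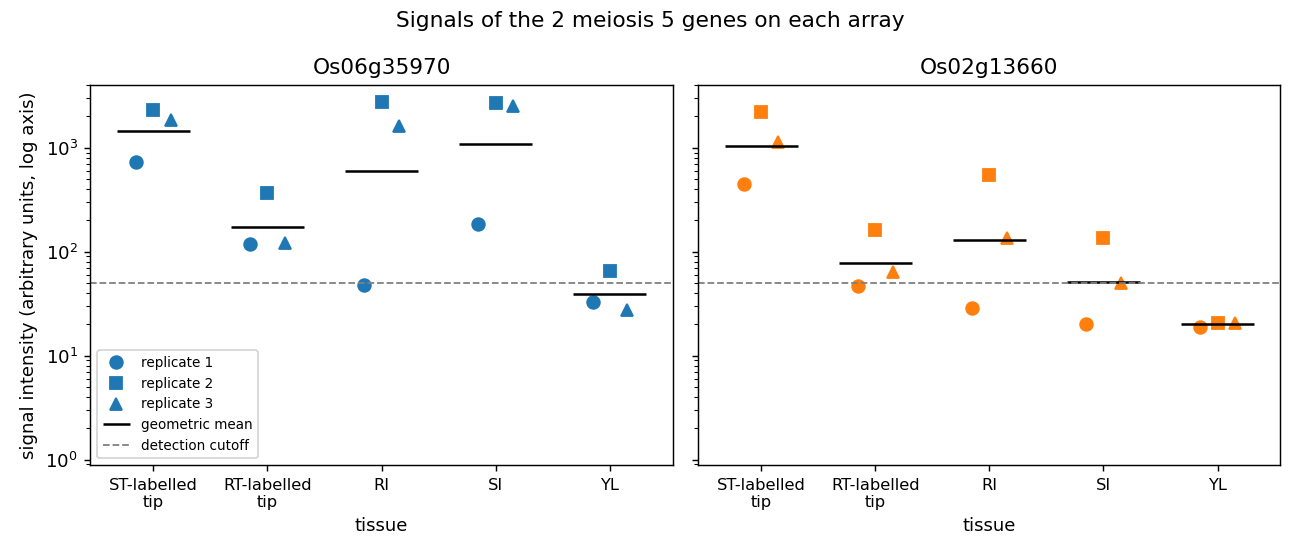
Signal intensity (arbitrary units, log axis) of Os06g35970 (left) and Os02g13660 (right) on each of the 15 arrays by tissue, with marker shapes for replicate numbers, black lines for the geometric mean of 3 arrays and a dashed line at the detection cutoff of 49.6. The ST-labelled tip was above the RT-labelled tip for both genes, and within RI and SI the lowest array of both genes was replicate 1.

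The RT-labelled array with the high 3′ to 5′ ratio, replicate 2, was also the brightest RT-labelled array for both genes. Without it, the ratio of ST-labelled to RT-labelled means was 13.5 for Os06g35970 and 22.8 for Os02g13660. Whether the ratio of the control probe sets bears on these 2 probe sets was not tested. Replicate 2 was the brightest of its tissue in 5 of 5 tissues for Os06g35970 and in 4 of 5 for Os02g13660. Among all tested probe sets, 0.629% had replicate 2 highest in all 5 tissues and 6.33% in at least 4.

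Ordered by mean signal, the tissues ran SI, ST-labelled tip, RI, RT-labelled tip and YL for Os06g35970. The first 3 overlapped each other, RI overlapped the RT-labelled tip, and the RT-labelled tip did not overlap YL. By geometric means the ST-labelled tip moved to the top of this order, 1.36 times SI and 2.45 times RI, because the low internode arrays weigh more on that scale. For Os02g13660 the order was ST-labelled tip, RI, RT-labelled tip, SI and YL. Each tissue overlapped the next one in that order, but the ST-labelled tip did not overlap SI, where the ratio of means was 18.5. Of all tested probe sets, 11.4% were called higher in the ST-labelled tip than in SI. The share without overlap was not counted for this pair or for the RT-labelled tip against YL. Against YL, where Os02g13660 was not above background, the ST-labelled tip was at least 21.0-fold higher, the bound being the geometric mean of the bright arrays over the cutoff.

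The first tested question was whether either gene differed between the 2 kinds of internode. Neither gene passed the test. For Os06g35970 the log2 difference of RI minus SI was −0.85 with a standard error of 1.35 and a 95% interval of −3.79 to 2.08 (limma over all 15 arrays, Benjamini-Hochberg adjusted p = 0.92). For Os02g13660 it was 1.33 with a standard error of 0.96 and an interval of −0.76 to 3.42 (limma, adjusted p = 0.72). Both intervals include differences of over 4-fold, so they leave room for a large difference that 3 arrays could not show. Of all tested probe sets, 1.90% were called in this contrast, a call needing both an adjusted p below 0.05 and a change of more than 2-fold. The values were not stable. The difference turned to 0.96 for Os06g35970 without RI replicate 1 (adjusted p = 0.87). With both arrays that clustered with the other internode tissue left out together, it was −3.23 for Os06g35970 (adjusted p = 0.13) and −0.39 for Os02g13660 (adjusted p = 0.82).

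Both genes were called higher in RI than in YL, but neither was above the cutoff on RI replicate 1. For Os06g35970 the arrays of these tissues also overlapped. Its RI replicate 1 (47.9, under the cutoff) lay below its YL replicate 2 (65.5). Os06g35970 was 3.93 higher on the log2 scale (standard error 1.35, interval 1.00 to 6.87, limma adjusted p = 0.030), a ratio of 15.3 between geometric means. Because only 1 of 3 YL arrays was above the cutoff, that ratio leans on signals at background and is not read as an exact fold. With signals under the cutoff set to it, the difference was 3.47 (limma adjusted p = 0.053). Os02g13660 was 2.69 higher (standard error 0.96, interval 0.60 to 4.78, limma adjusted p = 0.035). It was not above background in YL or on RI replicate 1 (29.1), so that difference is not read as an exact fold. The RI geometric mean was 2.61 times the cutoff. The difference was 1.64 with signals under the cutoff set to it (limma adjusted p = 0.12). In the same contrast 16.5% of the tested probe sets were called higher in RI, so such a call was common on these arrays. Neither call was firm. Without RI replicate 2 the adjusted p was 0.13 for Os06g35970 and 0.16 for Os02g13660, and without RI replicate 3 it was 0.11 and 0.081. Leaving out YL replicate 1 gave 0.075 and 0.081, leaving out YL replicate 3 gave 0.081 and 0.073, and without YL replicate 2 the call of Os02g13660 was lost (0.073). With both arrays that clustered with the other internode tissue left out, the adjusted p was 0.064 and 0.11.

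Of the 2 genes, Os06g35970 alone passed the test between SI and YL. It was 4.79 higher in SI on the log2 scale (standard error 1.35, interval 1.85 to 7.72, limma adjusted p = 0.014), a ratio of 27.6, beside 16.2% of tested probe sets called higher in SI. That ratio too leans on YL signals at background and is not read as an exact fold. With signals under the cutoff set to it the difference was 4.31 (adjusted p = 0.024). Without SI replicate 2 or SI replicate 3 the adjusted p was 0.061 and 0.059. For Os02g13660 the difference was 1.37 (standard error 0.96, interval −0.72 to 3.46, limma adjusted p = 0.27), with SI signals of 20.3 to 134.6 that overlapped those of YL. Without SI replicate 1 and RI replicate 2 the difference was 6.07 for Os06g35970 (adjusted p = 0.0012) and 2.04 for Os02g13660 (adjusted p = 0.049).

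**Figure D2:**
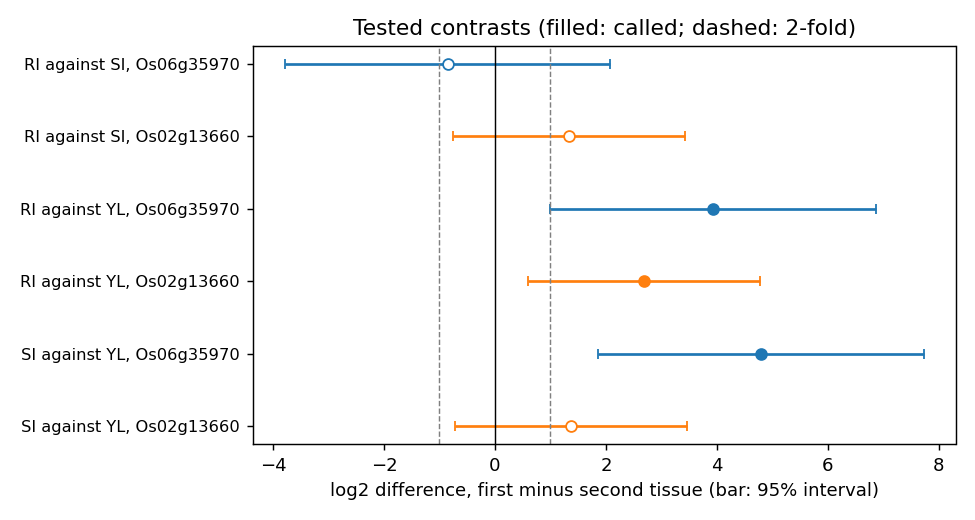
Differences of mean log2 signal (x axis) with 95% intervals for both genes in the 3 contrasts that were not used to choose them. Filled points passed an adjusted p of 0.05 and 2-fold, which were both genes in RI against YL and Os06g35970 in SI against YL.

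The fit without RT-labelled replicate 2, which shares in the residual variance, kept all 3 calls, with adjusted p-values of 0.034 and 0.036 for RI against YL and 0.017 for Os06g35970 in SI against YL. With 3 arrays a side, exact permutation reaches a two-sided p of 0.10 at best, so these calls rest on the variance that limma pools across tissues and probe sets.

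Both genes varied more between arrays of a tissue than most probe sets did. The SD of log2 signals pooled over the 5 tissues was 1.85 for Os06g35970 and 1.31 for Os02g13660, against a median of 0.420 over the tested probe sets. Only 182 tested probe sets (0.854%) had a larger pooled SD than Os06g35970, and 788 (3.70%) than Os02g13660. Within RI the SD of Os06g35970 was 3.17, exceeded by 40 probe sets, and within SI it was 2.21, exceeded by 585. In YL, where Os02g13660 was at background, its SD was 0.0747 and 94.5% of probe sets had a larger one.

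The low internode arrays of Os06g35970, RI replicate 1 and SI replicate 1, clustered with RI replicate 3, which was high at 1605. RI replicate 2 and SI replicates 2 and 3, which clustered together, were higher still, at 2743, 2706 and 2516. RI replicate 1 and SI replicate 1 both lay over 4-fold below each of the other 4 internode arrays, as they did for 273 tested probe sets (1.28%). The higher of the 2 read 182.9 and the lowest of the other 4 read 1605. For Os02g13660 both were also below each of the other 4 arrays, but by 1.74-fold at the closest, and this order held for 20.9% of the tested probe sets.

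Other measures moved with these 2 arrays. The 3′ probe set of the actin control gave 1696 on RI replicate 1 and 1721 on SI replicate 1, against 2790 to 4354 on the other 4 internode arrays, while that of GAPDH gave 4814 and 5355 against 4267 to 5233. The mean log2 signal of the 2 probe sets for MCM3, a subunit of the helicase that licenses DNA replication, was 4.14 on RI replicate 1 and 3.78 on SI replicate 1, and 4.49 to 6.13 on the other four. Photosynthesis markers were 6.31 on RI replicate 1, within the RI range, and 10.78 on SI replicate 1, the highest of SI. OSH1 was 10.08 and 9.46, the highest of RI and the lowest of SI. The part of these measures in the low signals of both genes was not tested.

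Over the 15 arrays the log2 signals of both genes had a Pearson correlation of 0.773 (Spearman 0.739), and 0.714 without the 2 arrays farthest from the median of Os06g35970. With each tissue mean subtracted the correlation was 0.888 (Spearman 0.854). These are descriptions, since all values of an array share 1 RNA sample and 1 hybridization, and both genes were chosen for the same tip difference. Os02g13660 ranked 456th of 21302 probe sets by its correlation with Os06g35970, and Os06g35970 ranked 143rd by its correlation with Os02g13660. Without the 3 arrays that stood apart the correlation was 0.758 over 12 arrays and these ranks were 743 and 251.

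The log2 signal of Os06g35970 minus that of Os02g13660 is not changed by the scaling of an array, and its zero has no meaning because the probes differ, but its change between tissues can be read where both genes are above background. It was 3.17, 4.33 and 5.64 on the SI arrays, where Os02g13660 was under the cutoff on the first. In the ST-labelled tip it was 0.69, 0.070 and 0.70, and in the RT-labelled tip 1.35, 1.19 and 0.92, with Os02g13660 under the cutoff on the first RT-labelled array. SI lay above both tips on every array, a comparison with tips that is given without a test. The RI arrays gave 0.72, 2.32 and 3.56, with both genes under the cutoff on the first. RI overlapped SI only through the first SI array. On the arrays with both genes above the cutoff, RI gave 2.32 and 3.56 and SI 4.33 and 5.64, too few to test. Over all RI and SI arrays, those under the cutoff included, the difference was −2.18. Its exact two-sided permutation p was 0.20 (0.30 after adjustment over 3 comparisons, all internode and YL pairs). On YL arrays Os02g13660 was not above background, so no difference from YL is read.

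**Figure D3:**
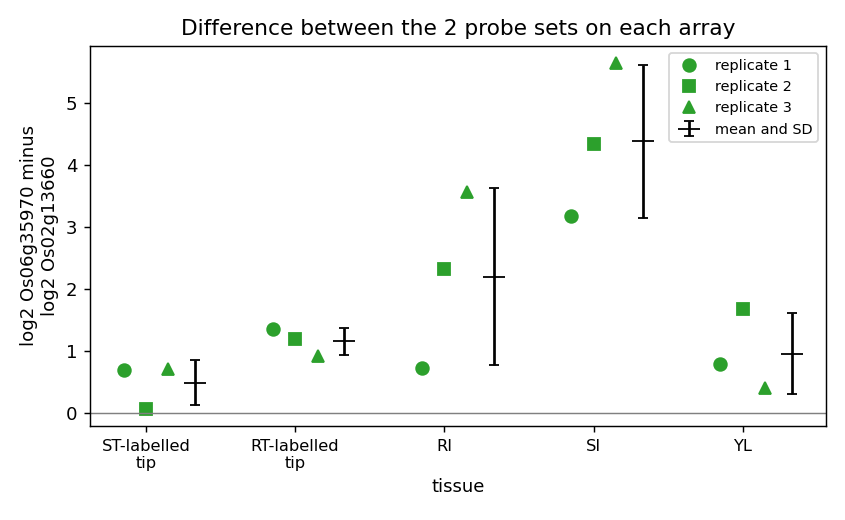
The log2 signal of Os06g35970 minus that of Os02g13660 (y axis) on each array by tissue, with marker shapes for replicate numbers and the mean and SD of 3 arrays at the right of each group. The 3 SI arrays, at 3.17 to 5.64, lay above all tip arrays. They overlapped RI only through the SI array at 3.17, where Os02g13660 was under the cutoff. The YL values rest on signals at background.

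The named genes with a pattern most like each meiosis 5 gene were found by the Pearson correlation of log2 signals over the 15 arrays. The search covered the 2538 other tested probe sets with a locus and a description in the study's tables. Those tables were selected on these same arrays for tissue differences. A platform symbol alone, as 22436 probe sets have, did not count as a name. For Os06g35970 they were 2 proline-rich protein genes of chromosome 10, Os10g05990 (r = 0.971) and Os10g06000 (0.953), then a beta-ketoacyl-CoA synthase family gene Os10g33370 (0.929), the Peroxidase 1 precursor Os05g41990 (0.925) and an expressed protein Os02g52880 (0.924). Proline-rich proteins are structural proteins of plant cell walls, beta-ketoacyl-CoA synthases lengthen the fatty acids of waxes and cuticle, and class III peroxidases act in the cell wall. Neighbouring genes of 1 family can be alike in sequence, so the 2 probe sets of proline-rich protein genes may share target RNA.

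Os10g05990 shows how close the match was. It read 409.5, 455.3 and 891.5 on the ST-labelled arrays and 10.4, 71.3 and 18.9 on the RT-labelled arrays. In RI it read 7.84, 2197 and 1123, and in SI 10.4, 2272 and 2396, with replicate 1 low in both. All 5 of these genes were low on the same 2 internode arrays, which their selection by correlation over these arrays brings about. Without the 3 arrays that stood apart their correlations with Os06g35970 were 0.926 to 0.980.

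For Os02g13660 the most alike named genes were the thionin family gene Os06g32600 (r = 0.956), an oleosin family gene Os09g15520 (0.931), an expressed protein Os01g12110 (0.920), a hypothetical protein Os11g10590 (0.917) and another thionin family gene, Os06g32350 (0.917). Thionins are small cysteine-rich defence peptides, and oleosins coat oil bodies. The oleosin probe set has the suffix "_s_at", which can match several transcripts of a family. Os06g32600 read 102.2, 732 and 232.8 on the ST-labelled arrays, so replicate 2 was the highest and replicate 1 the lowest there, as for Os02g13660. In its other tissues it ranged from 8.45 to 81.3. Without the 3 arrays that stood apart the correlations of these 5 genes with Os02g13660 were 0.918 to 0.963.

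Correlations over 0.9 were found with 32 probe sets for Os06g35970 and with 8 for Os02g13660. Of the 20 most alike probe sets, 9 and 15 were in the study's list of tip differences, which also chose both genes. No gene is among the 5 named for both.

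**Figure D4:**
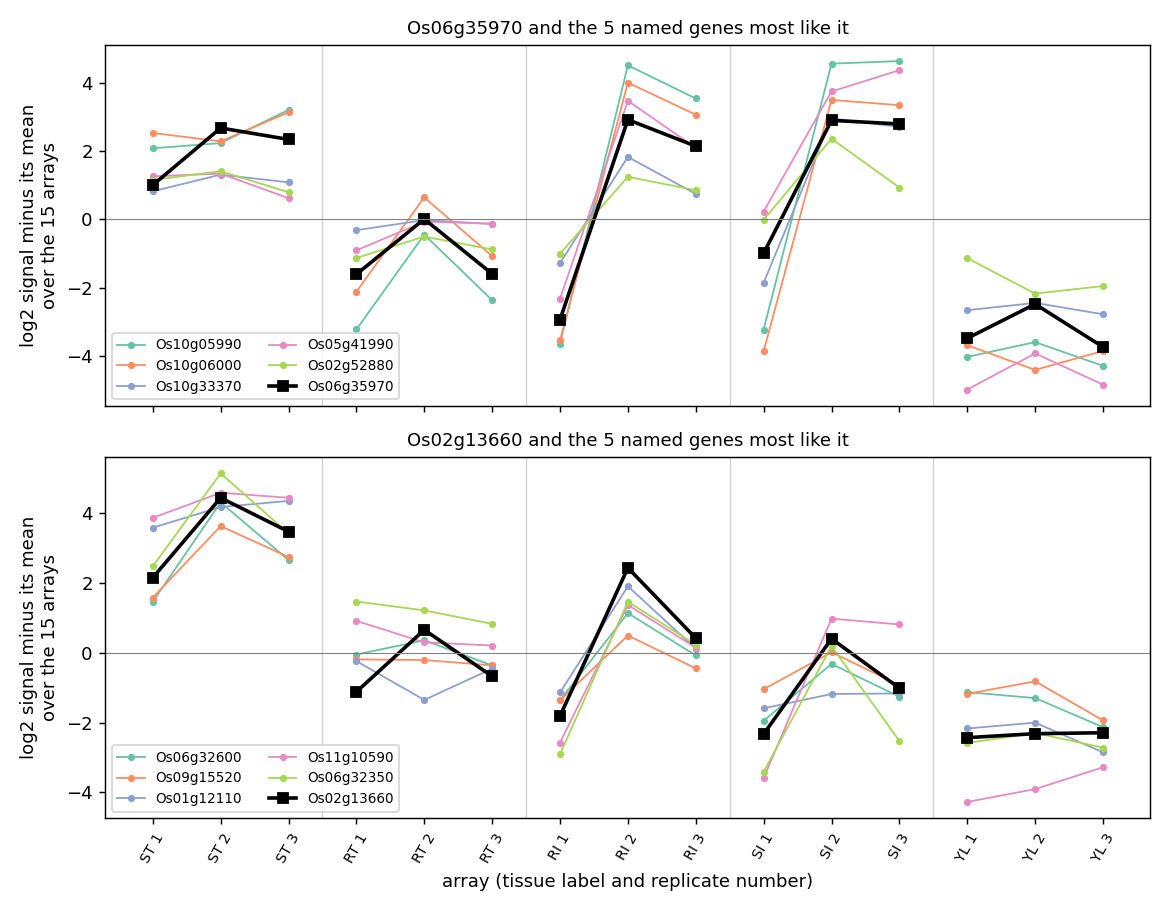
Log2 signal minus its own mean over the 15 arrays (y axis) for Os06g35970 (top, black) and Os02g13660 (bottom, black) and the 5 named genes most like each (colours), array by array (x axis, tissue label and replicate number). Lines join arrays of 1 tissue only to guide the eye. The upper set drops on RI 1 and SI 1, and the lower set is highest on the ST-labelled arrays.

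Among other genes picked by symbol for meiosis or anther development, 5 probe sets of 3 genes were on the array list and 2 of them were tested. OsSPO11B is named for SPO11, the protein that cuts DNA to start meiotic recombination, although plants also use relatives of SPO11 outside meiosis. It has 3 probe sets, of which 2 were under the cutoff on every array. The third, whose suffix "_x_at" allows matches to other genes, had means of 295.3 ± 125 in RI, 85.1 ± 22.6 in SI and 36.6 ± 6.02 in YL (SD, n = 3). It was 1.74 higher in RI than in SI on the log2 scale (limma adjusted p = 0.0081) and, being under the cutoff on all YL arrays, at least 5.59-fold higher in RI than in YL (9.5e-06). It was not like either meiosis 5 gene, with correlations of 0.352 and 0.483 over the 15 arrays. The probe set with the symbol SPO11-3, which the study's tables annotate instead as a chloroplast UPF0308 protein (Os03g17600), was brightest in YL at 1494 ± 149.6 (SD, n = 3) and fell by 3.73 from YL to RI (limma adjusted p = 8.8e-06). TDR, a regulator of tapetum degeneration in rice anthers, was under the cutoff on all 15 arrays.

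Genes of cell division were described with a list of 17 probe sets for cyclins, histones, replication licensing factors and kinesins. All 17 come from tables that the study selected on these same arrays, 12 from those it names as enriched in ST and 5 from those enriched in YL, so the counts follow the selection and are no evidence on cell division genes at large. The study's ST is not the ST-labelled tip here: the median log2 difference of ST-labelled minus RT-labelled was −0.68 over the 17, all 17 not called. Against RI, 12 of 17 were called higher in the ST-labelled tip (13.1% of all tested probe sets were), and against SI 11 of 17 (11.4%). In the RT-labelled tip 13 of 17 were called higher than in RI (31.5% of all tested probe sets were called in either direction). Against SI it was also 13 of 17 (29.4% in either direction). Between RI and YL none was called higher in RI and 4 in YL (21.0% of all), with a median difference of −0.40 beside −0.0056 over all tested probe sets. Between SI and YL 2 were called higher in SI and 4 in YL (17.0% of all). MCM3 (Os05g39850) had means of 372 in the ST-labelled tip, 731 in the RT-labelled tip, 20.8 in RI, 31.0 in SI and 7.61 in YL, so it was dim in the internodes where Os06g35970 was bright on 4 of 6 arrays. The kinesin gene Os02g56540 was alike, with 377.5, 592, 21.7, 31.9 and 12.5. Histone genes Os06g04030 and Os07g36140 were brightest in YL, at 6604 and 4741. The correlations of the 17 with Os06g35970 ranged from −0.72 to 0.43, and with Os02g13660 from −0.67 to 0.56.

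The list of shoot meristem genes held 18 probe sets for homeobox, YABBY, CEN-like, PINHEAD and no-apical-meristem genes. All came from the study's tables, 9 of them from the one for YL. None was called higher in RI than in SI and 2 were called higher in SI (1.90% of all tested probe sets were called in either direction). These were the PINHEAD genes Os06g51310 (log2 difference of RI minus SI −1.97, limma adjusted p = 0.0019) and Os06g39640 (−1.83, limma adjusted p = 0.038). Between RI and YL 2 were called higher in RI and 11 in YL, beside 16.5% and 21.0% of all, and between SI and YL 3 and 9, beside 16.2% and 17.0%. The excess in YL follows the source of the list. The no-apical-meristem genes Os05g35170, Os01g15640 and Os08g44820, members of the NAC transcription factor family, were brightest in YL with means of 3209, 2738 and 2364. OSH1 (Os03g51690) was not above background in YL and at least 18.9-fold higher in RI and 16.5-fold higher in SI, and its correlations with the meiosis 5 genes were 0.653 and 0.605.

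One member of that list was called between the tips, where 0.864% of tested probe sets were. The CEN-like protein 2 gene Os04g33570, of the family that keeps shoot meristems indeterminate, had means of 438.5 ± 19.2 on ST-labelled and 49.4 ± 29.4 on RT-labelled arrays (SD, n = 3). It is in the study's list of tip differences, so this call follows the selection, and it was named after its values were seen. Its correlation was 0.886 with Os02g13660 and 0.552 with Os06g35970. The granule-bound starch synthase 1 marker had log2 signals of 12.26 to 12.42 in RI and 10.69 to 12.15 in SI against 5.08 to 6.69 on tip arrays.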

How the data were processed

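RNA of 5 tissues, 3 replicates each, was hybridized to 15 Affymetrix rice arrays. Deposited values are linear signal intensities that the authors made with GCOS and scaled between arrays in dChip. The summarisation method is not given in the sources used here, and no detection calls were used. Array medians were 21.9 to 23.6. Of 57381 probe sets, 187 controls were left out. The detection cutoff, 49.6, was set at percentile 95 of 64 reporter controls. Testing was limited to the 21303 rice probe sets whose 3 arrays all exceeded it in some tissue (for Os02g13660 this was the ST-labelled tip alone). Signals under 1 were set to 1, log2 was taken, and limma 3.58.1 (R 4.3.3) was fitted with 1 mean per tissue and no replicate block. Calls needed a Benjamini-Hochberg adjusted p under 0.05 over all tested probe sets and over 2-fold. The study set the same limits, on q-values of the SAM software, for RT against ST. The fit was tested on simulated data. Figures used Python 3.11.15 and matplotlib 3.10.9.

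Names came from the platform table (22436 probe sets with 1 symbol, 95 with several, 34850 with none) and the study's tables, without their values. Named genes were both members, the 5 probe sets named in the study's tables and most correlated with each (none with several platform symbols), and up to 4 of each list with the highest mean signal. The members and lists were chosen with earlier results of these data known. Only the number of arrays can be given for precision. Alternatives changed the normalization, cutoff, filter, floor, pseudocount, arrays and replicate block.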

Additional observations from a re-analysis of the deposited data

How the results depend on the processing

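Quantile normalization, median centring, the other cutoffs (29.9 and 62.4) and a pseudocount of 16 kept all 6 tests of both genes on the same side and in the same direction. The call of Os02g13660 in RI against YL was lost without the filter (adjusted p = 0.058, difference 2.69). With signals under the cutoff set to it, RI against YL was 3.47 (adjusted p = 0.053) for Os06g35970 and 1.64 (0.12) for Os02g13660, and with only the 6 arrays of the comparison 3.93 (0.068) and 2.69 (0.062). Without SI replicate 1 and RI replicate 2 together, an alternative chosen after seeing the data, RI against YL was 2.83 (0.064) and 1.65 (0.11), for Os06g35970 RI against SI was −3.23 (0.13) and SI against YL 6.07 (0.0012), and for Os02g13660 SI against YL was 2.04 (0.049) and RI against SI −0.39 (0.82). Leaving out single arrays gave −2.13 to 0.96 for Os06g35970 in RI against SI, the high end without RI replicate 1, and 0.28 to 2.41 for Os02g13660. RI against YL ranged from 2.83 to 5.75 (adjusted p 0.0010 to 0.13) and 1.65 to 3.77 (0.0046 to 0.16). SI against YL ranged from 4.12 to 6.07 (0.0024 to 0.061) and 0.67 to 2.04 (0.11 to 0.65).

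Calls between RI and SI numbered 405, against 2036 without SI replicate 1 and RI replicate 2 together, 124 with only the 6 arrays (also added after seeing the data), 243 without RI replicate 3 and 772 without SI replicate 1. Without 1 array the untested differences ranged from −0.52 to 2.40 for ST minus RI and −0.84 to 1.11 for ST minus SI of Os06g35970, and from −1.80 to 0.32 for RT minus RI and −0.072 to 1.29 for RT minus SI of Os02g13660. The ST minus RT difference kept its sign, at 2.73 to 3.60 and 3.19 to 4.33. Of the 5 genes named as most like each member, 3 and 1 remained by Spearman's rho, 5 and 4 after quantile normalization and 2 and 2 over the tissue means. The cause of these changes was not tested.

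The replicate numbers are shared by all tissues but do not pair the samples: over 30 pairs of equal number the correlation of deviations ran from −0.353 to 0.621, with 6 over 0.1 and 7 under −0.1. With the replicate block no call of either gene changed. RI against YL was 3.93 (adjusted p = 0.0057) and 2.69 (0.0028), SI against YL 4.79 (0.0025) and 1.37 (0.073), RI against SI −0.85 (0.84) and 1.33 (0.42), and calls over all probe sets were 350, 8030 and 7105 for RI against SI, RI against YL and SI against YL.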
